A study of Mus musculus with 12 samples.

Results

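The transcripts of 36 enzymes that make, salvage, phosphorylate or remove nucleotides were compared in murine splenic B cells cultured with or without CpG oligodeoxynucleotides (CpG ODNs). The members are a list of named genes, each found by its symbol in the deposited table and kept if it stood above 1 FPKM in at least 3 of 12 libraries. All 36 were found, all 36 passed this filter, and all 36 stood above 1 FPKM in all 12 libraries, out of 28019 entries in the table and 15853 entries tested. FPKM is the number of fragments per kilobase of transcript and per mega of mapped fragments, so levels of different genes can be set side by side per length. The B cells came from spleens of the inbred strain BALB/c, from mice aged 42 to 49 post-natal days, and no transgene or deletion is named in the labels. They were kept for 24 h in RPMI-1640 medium with fetal bovine serum and antibiotics. The control group is labelled NC in the titles, and the treated groups received 1 µM of a CpG ODN of class A, B or C. Libraries are numbered 1 to 3 within a group, with 3 in each of the 4 groups. The labels do not say whether they came from separate mice or cultures, so the p-values measure only the spread between these libraries, which may be technical. The sequences of the ODNs and the way the B cells were purified are not given in the sources used here.

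CpG ODNs are synthetic DNAs that engage the endosomal receptor TLR9, which B cells express. The classes differ in backbone and form: class A joins a phosphodiester palindrome to phosphorothioate poly-G tails, class B is phosphorothioate throughout, and class C joins a phosphorothioate stretch to a palindrome. A resting B cell holds small pools of nucleotides, and a B cell that enters the cell cycle needs purines and pyrimidines for RNA and deoxynucleotides for DNA. Purines are assembled stepwise on phosphoribosyl pyrophosphate (PRPP) to give IMP, from which AMP and GMP branch. Pyrimidines are made as a ring first, joined to PRPP to give UMP, and converted to CTP. Ribonucleotide reductase turns ribonucleotides into deoxynucleotides, thymidylate is made from deoxyuridylate with a folate carrying a carbon unit, and salvage enzymes recover free bases and nucleosides.

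The depth of each library was estimated from the steps of low FPKM values, at 14.4 to 17.3 M fragments in the control, 21.3 to 22.6 under CpG-A, 24.6 to 24.9 under CpG-B and 24.6 to 25.9 under CpG-C, and 1 fragment on a transcript of 1 kb was worth 0.0387 to 0.0697 FPKM. Entries at 1 FPKM or more numbered 15491 to 18591 in the control libraries and 10761 to 11562 in the treated libraries. The FPKM of all entries summed to 439400 to 448500 in the control and 483200 to 578400 in the treated libraries. The part of this difference in the comparisons with control was not tested. The lowest value of any member was 4.19 FPKM, and the highest was 453 FPKM. The defining B cell marker Ms4a1 (CD20) was present throughout, at 358 to 581 FPKM over the 12 libraries. The summed FPKM of 10 B cell markers was 11870 to 12290 in the control, 8612 to 9135 under CpG-A, 6571 to 7632 under CpG-B and 5535 to 7393 under CpG-C. The summed FPKM of 6 T cell markers was 3.66 to 6.32 in the control and 0.22 to 3.38 in the treated libraries, with Cd3e at most at 1.63 FPKM. The monocyte and macrophage sum (6 markers) was 7.97 to 9.34 in the control and 12.1 to 12.97 under CpG-A. Under CpG-B it was 2.58 to 3.96, and under CpG-C at most 4.59. Lyz2 was at most at 0.57 FPKM, so other listed markers made up most of this sum. Of these 6 markers, 3 stayed below 1 FPKM in all 12 libraries and 2 passed the filter. By the test described below, 1 was called higher than the control in each class. The number called lower was 0 under CpG-A and 1 under CpG-B and under CpG-C. The sum of 5 dendritic cell markers was 1.74 to 4.01 FPKM in the control and CpG-A libraries and 4.61 to 18.7 in the CpG-B and CpG-C libraries, highest in library CpG-B 3, and that of 5 plasma cell markers was 112 to 120 FPKM in the control and 154 to 370 in the treated libraries. Of the dendritic cell markers, 2 stayed below 1 FPKM in all 12 libraries and 2 passed the filter. Of those that passed, 1 was called lower in each class, and 1 was called higher under CpG-B and under CpG-C. Of the plasma cell markers, 3 were called higher and 1 lower in each class. The NK cell, neutrophil and erythroid and platelet sums were at most 5.30 FPKM in any library. The part of these other cells in the member values was not tested. Libraries CpG-B 3 and CpG-C 3 stood apart from the other libraries of their groups for these members, and the counts of members called are therefore also given without them. That choice rests on the member values themselves, leaves only libraries 1 and 2 in these groups and lowers the estimated spread. Calls kept or gained without them therefore describe the remaining libraries only.

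Promoter windows of 300 bases (250 before to 50 after a start site, RefSeq sequences on GRCm38.p6) were found for 33 of the 36 members, and 5 short motifs were searched on both strands. The letters CACGTG, the E-box that MYC and related factors are known to bind, stood in the windows of Atic, Dtymk, Impdh2, Nme1, Paics and Tyms. That is 6 of 33 members (18.2%), beside 12.1% of the 8830 tested genes with a window and 7.15% of all 32851 windows. CCAAT, bound by NF-Y, stood in 13 members (39.4%, beside 43.5% of tested genes), the E2F form TTTCCCGC in Ppat and Prps2 (6.06%, beside 2.54%), the NRF1 form GCGCATGC in Ctps and Ppat (6.06%, beside 6.41%) and the E2F form TTTGGCGC in none (beside 1.20%). No motif contains another, and a match is a description of the sequence only. The E-box sites of 4 members that are described below in every library are shown so that the letters round the motif can be compared, read 5′ to 3′ on the strand of the gene with the E-box in capitals. They lie at chr9:108560314-108560343 (plus strand) for Impdh2, 110 bases before its start site, at chr5:76951087-76951116 (plus strand) for Paics, 203 bases before, at chr11:93968273-93968302 (minus strand) for Nme1, 18 bases before, and at chr5:30073669-30073698 (minus strand) for Tyms, 61 bases before. Nme1 holds another before its second start site, which is not shown.
Impdh2: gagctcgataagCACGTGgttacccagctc
Paics: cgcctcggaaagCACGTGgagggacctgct
Nme1: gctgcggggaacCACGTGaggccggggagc
Tyms: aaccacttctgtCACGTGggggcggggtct
The GENCODE annotation of the same build places the Impdh2 and Nme1 sites in a UTR exon of other transcripts of these genes, and the Paics site in a UTR exon of Ppat on the other strand, and no exon at the Tyms site. Against control the log2 changes of these genes under CpG-A, CpG-B and CpG-C were 1.39, 1.44 and 1.42 (Impdh2), 1.22, 1.27 and 1.36 (Paics) and 1.51, 0.99 and 1.26 (Nme1), and all 9 values passed the test described next, while those of Tyms were -0.13, -0.21 and -0.02 and none passed. Tyms was added to the genes shown after its values were seen, and control library 2 stood far above the other control libraries (26.4 beside 12.7 and 11.6 FPKM). Atic and Dtymk, whose sites are not shown, were called higher with each class.

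Most of the enzymes were higher after each CpG class, and ribonucleotide reductase subunit Rrm2 moved furthest. Each gene was tested with limma on log2(FPKM + 1) in a fit of all 12 libraries, the p-values of all 15853 entries were adjusted together (Benjamini-Hochberg), and a gene was called when its adjusted p lay under 0.05. Changes are log2 differences on that scale ± SE, which understates the change of low genes, and the 3 comparisons with control share the same 3 control libraries. With CpG-A, 28 of 36 members rose (beside 23.6% of all entries tested and 32.8% of known genes) and 3 fell (beside 42.1% and 22.1%). With CpG-B, 26 rose (beside 25.7% and 34.8%) and 3 fell (beside 51.8% and 35.3%). With CpG-C, 29 rose (beside 26.1% and 35.7%) and 3 fell (beside 51.3% and 34.5%). The treated libraries did not overlap the control libraries in 33 members under CpG-A (beside 76.4% of all entries), 32 under CpG-B (80.7%) and 32 under CpG-C (80.2%). The share of members that rose stood well above that of all entries in each class. The median change of the 36 members was 1.20 under CpG-A, 0.75 under CpG-B and 0.87 under CpG-C, where that of all entries was -0.16, -0.31 and -0.31 and that of known genes 0.05, 0.00 and 0.01. In a bulk library a change in the share of dividing or other B cells and a change of RNA per cell cannot be told apart. The members that fell were the same 3 with every class: Ctps2, Rrm2b and Samhd1. With CpG-A this count of 3 was 1 without control library 3 or library CpG-A 1. Impdh1, Dhodh, Tyms and Guk1 passed with no class, Dck did not pass under CpG-A, and Pfas, Gmps and Cad did not pass under CpG-B. In fits of only the 2 groups compared, Dck and Guk1 passed as higher under CpG-A (adjusted p = 0.00239 and 0.0263). Pfas and Gmps then passed as higher under CpG-B (0.0387 and 0.0345), and the others named here did not pass. In those fits 25.9% of all entries rose under CpG-A and 24.8% under CpG-B. Without libraries CpG-B 3 and CpG-C 3 all calls of the full fit were kept, with 30 rising under CpG-A (beside 28.2%), 29 under CpG-B (beside 28.3%) and 29 under CpG-C (beside 28.4%), and the same 3 falling (beside 47.8%, 53.0% and 53.0%). That choice of libraries lowers the spread, so the keeping of these calls gives no further support. Without library CpG-B 3 alone, Ppat, Gart, Atic, Mthfd1 and Ctps2 lost their call under CpG-B.

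**Figure D1:**
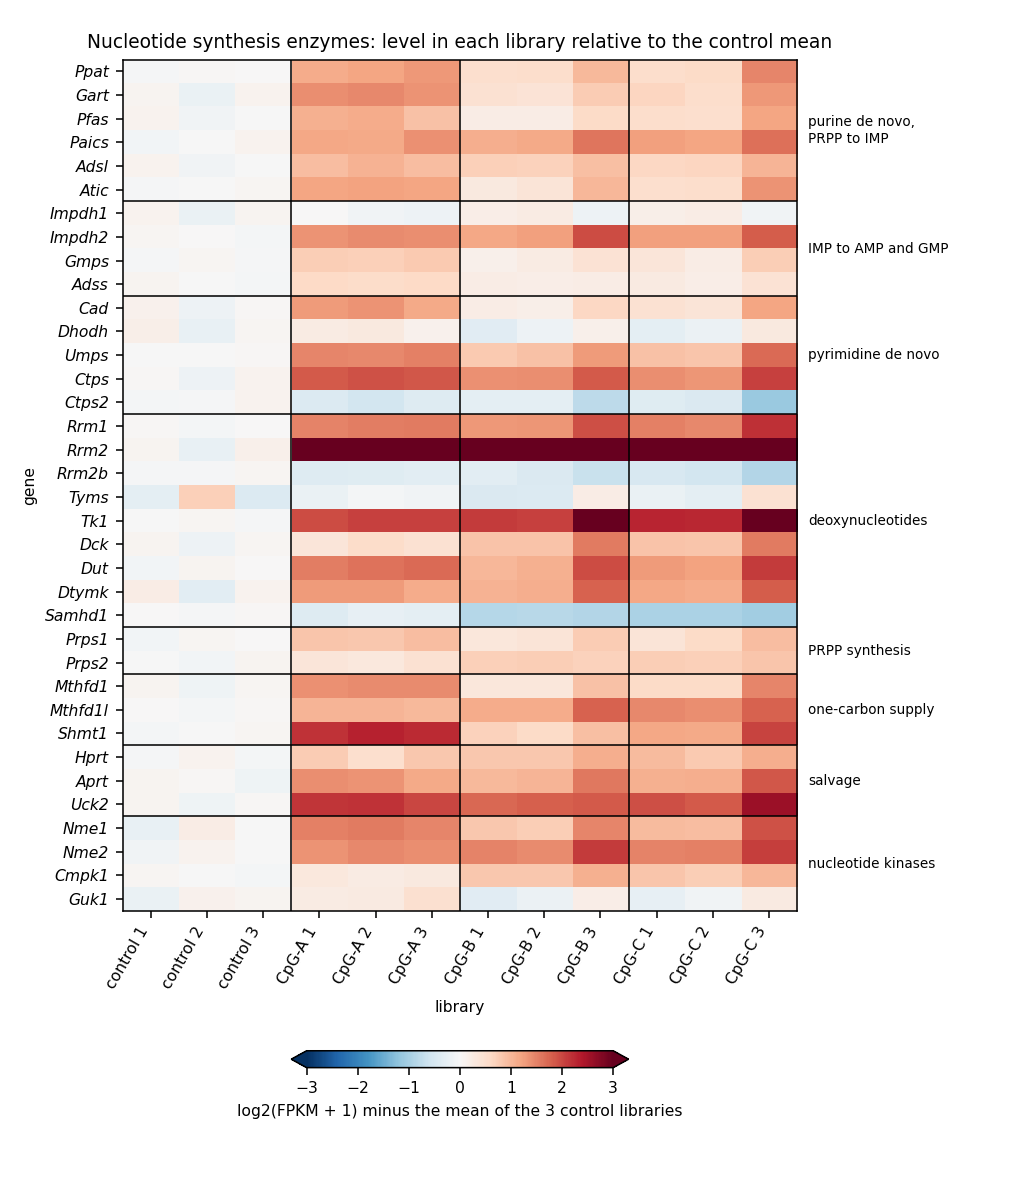
Level of each of the 36 transcripts (rows, by role) in each of the 12 libraries (columns), as log2(FPKM + 1) minus the mean of the 3 control libraries; the colours are clipped at 3 in either direction. Rrm2 is the deepest red row, Ctps2, Rrm2b and Samhd1 are blue in all treated columns, and the CpG-B 3 and CpG-C 3 columns are deeper than their neighbours in most rows.

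The 6 enzymes of the purine route from PRPP to IMP rose together under CpG-A and under CpG-C (6 of 6 each), and 5 of 6 rose under CpG-B, where Pfas did not pass. Their median log2 change was 1.20 under CpG-A, 0.61 under CpG-B and 0.81 under CpG-C. Paics, which joins carbon dioxide and aspartate to the growing purine, was the most abundant of the 6 and had the largest mean change. It stood at 40.99, 42.6 and 46.5 FPKM in the control libraries, 98.7, 96.5 and 113 under CpG-A, 93.3, 95.7 and 133 under CpG-B and 104, 100.2 and 138 under CpG-C. All treated libraries lay above all control libraries, and libraries CpG-B 3 and CpG-C 3 were the highest. The changes were 1.22 ± 0.15, 1.27 ± 0.15 and 1.36 ± 0.15 (adjusted p = 2.63e-05, 5.95e-06 and 3.46e-06). Pfas, the synthase of formylglycinamidine ribonucleotide, had the smallest mean change. It stood at 8.87, 7.52 and 8.02 FPKM in the control libraries, 18.2, 18.8 and 15.7 under CpG-A, 9.60, 9.67 and 12.7 under CpG-B and 12.1, 11.9 and 19.7 under CpG-C. The CpG-A libraries were about level with library CpG-C 3 and above all CpG-B libraries, and the CpG-B libraries lay only a little above the control. Pfas rose by 1.02 ± 0.17 under CpG-A and 0.74 ± 0.17 under CpG-C (adjusted p = 0.000194 and 0.00162), and its value under CpG-B was 0.34 ± 0.17 (adjusted p = 0.0825).

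Ppat, which commits PRPP to purine synthesis, was at 8.33 ± 0.266 FPKM in the control, 20.4 ± 1.49 under CpG-A, 13.9 ± 2.88 under CpG-B and 16.7 ± 6.98 under CpG-C (mean ± SD, n = 3 libraries here and below), with changes of 1.20, 0.66 and 0.85. Gart, a protein with 3 activities of the route, was at 18.02 ± 2.17 FPKM in the control, 48.9 ± 1.61 under CpG-A, 26.8 ± 3.83 under CpG-B and 33.5 ± 10.8 under CpG-C, with changes of 1.40, 0.55 and 0.82. Atic, which carries out the closing steps to IMP, changed by 1.19, 0.56 and 0.80, and Adsl, which also serves the AMP branch, by 0.96, 0.77 and 0.76. The Ppat, Gart and Atic changes under CpG-B lost their call when library CpG-B 3 was left out (log2 values of 0.51, 0.44 and 0.35, adjusted p = 0.0561, 0.0563 and 0.133), and after TPM scaling (0.39, 0.26 and 0.27, adjusted p = 0.0784, 0.155 and 0.201). Gart also lost it without control library 2, and Atic without any control library. Ppat (chr5:76913249-76951578, minus strand) and Paics (chr5:76951330-76967505, plus strand, mm10 coordinates of the deposited table) face away from each other and overlap by 249 bases at their starts. Reads from the overlap cannot be assigned unless counting used the strand, which the sources used here do not give. The overlap is short beside both transcripts, of which 5.67% (Ppat) and 12.1% (Paics) of all 50-base stretches occur in another gene's transcript as well. With CpG-B the change was 1.27 in Paics and 0.66 in Ppat, a difference that was not tested.

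At the branch from IMP, Impdh2 rose with each class, and its paralogue Impdh1 passed with none. Impdh2, the inducible IMP dehydrogenase, stood at 61.5, 59.6 and 56.7 FPKM in the control libraries, 153, 159 and 157 under CpG-A, 133, 141 and 231 under CpG-B and 140.4, 140.1 and 210.4 under CpG-C. All treated libraries were above all control libraries, with library CpG-B 3 the highest. The changes were 1.39 ± 0.19, 1.44 ± 0.19 and 1.42 ± 0.19 (adjusted p = 6.29e-05, 2.13e-05 and 2.42e-05). Impdh1 stood at 13.1, 10.4 and 12.9 FPKM in the control libraries, 12.2, 11.2 and 10.8 under CpG-A, 14.04, 14.6 and 10.9 under CpG-B and 13.7, 14.2 and 11.2 under CpG-C. Its groups overlapped, and its values were -0.08 ± 0.13, 0.10 ± 0.13 and 0.10 ± 0.13 with none past the threshold (adjusted p = 0.62, 0.467 and 0.509). The 95% interval of the Impdh1 change was -0.36 to 0.20 under CpG-A, -0.18 to 0.39 under CpG-B and -0.18 to 0.38 under CpG-C. Of the 50-base stretches of the Impdh2 transcript 73.9% occur in the pseudogene Impdh2-ps as well, so its level depends on how the authors assigned shared reads. Gmps, which makes GMP from XMP, had values of 0.74, 0.27 and 0.44, of which the CpG-C value did not pass after TPM scaling (0.20, adjusted p = 0.0939) and the CpG-B value did not pass (adjusted p = 0.0529). Adss, which opens the AMP arm, changed by 0.58, 0.22 and 0.30, and all 3 passed. After TPM scaling the Adss values were -0.0739 under CpG-B and 0.05 under CpG-C, which did not pass (adjusted p = 0.357 and 0.526), and the CpG-B call was also lost without control library 3. The Adss changes were the smallest among the called rises of this branch.

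In the pyrimidine route, Ctps, Umps and, under CpG-A and CpG-C, Cad rose, Dhodh did not pass, and Ctps2 fell. Ctps makes CTP from UTP, and in humans its orthologue CTPS1 is needed for the expansion of activated lymphocytes. It stood at 7.13, 6.16 and 7.47 FPKM in the control libraries, 27.2, 28.9 and 27.9 under CpG-A, 19.4, 19.6 and 27.2 under CpG-B and 19.7, 18.8 and 31.5 under CpG-C. Every treated library was above every control library, and the changes were 1.87 ± 0.18, 1.53 ± 0.18 and 1.59 ± 0.18 (adjusted p = 7.41e-06, 6.02e-06 and 4.50e-06). Ctps2, the second CTP synthase, stood at 20.4, 20.8 and 22.9 FPKM in the control libraries, 15.7, 14.2 and 15.99 under CpG-A, 17.3, 17.1 and 12.1 under CpG-B and 16.2, 15.6 and 9.33 under CpG-C. The treated libraries all lay below the control libraries, and libraries CpG-B 3 and CpG-C 3 were the lowest. Ctps2 fell by 0.46 ± 0.18 under CpG-A, by 0.45 ± 0.18 under CpG-B and by 0.64 ± 0.18 under CpG-C (adjusted p = 0.0429, 0.0373 and 0.00665), and the call under CpG-A was lost when any of the 6 libraries compared was left out, that under CpG-B when any control library or library CpG-B 3 was, or after median-of-ratios scaling (-0.22, adjusted p = 0.242). The CpG-A call of Ctps2 was also lost with a filter at 5 FPKM, no filter and known genes only (adjusted p = 0.0534, 0.0539 and 0.05001). Cad, which carries the first steps of the route, was at 13.2 ± 1.37 FPKM in the control, 32.8 ± 2.35 under CpG-A, 17.1 ± 3.30 under CpG-B and 22.5 ± 7.54 under CpG-C. Its value was 1.25 ± 0.19 under CpG-A and 0.68 ± 0.19 under CpG-C, and 0.34 ± 0.19 under CpG-B, which did not pass (adjusted p = 0.115). Umps, which makes UMP, changed by 1.48, 0.98 and 1.13, and all 3 passed. Dhodh, the mitochondrial step between them, was at 8.48 ± 1.30 FPKM in the control, 10.04 ± 0.645 under CpG-A, 7.79 ± 1.49 under CpG-B and 8.20 ± 2.13 under CpG-C, with values of 0.23, -0.11 and -0.06 that did not pass.

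**Figure D2:**
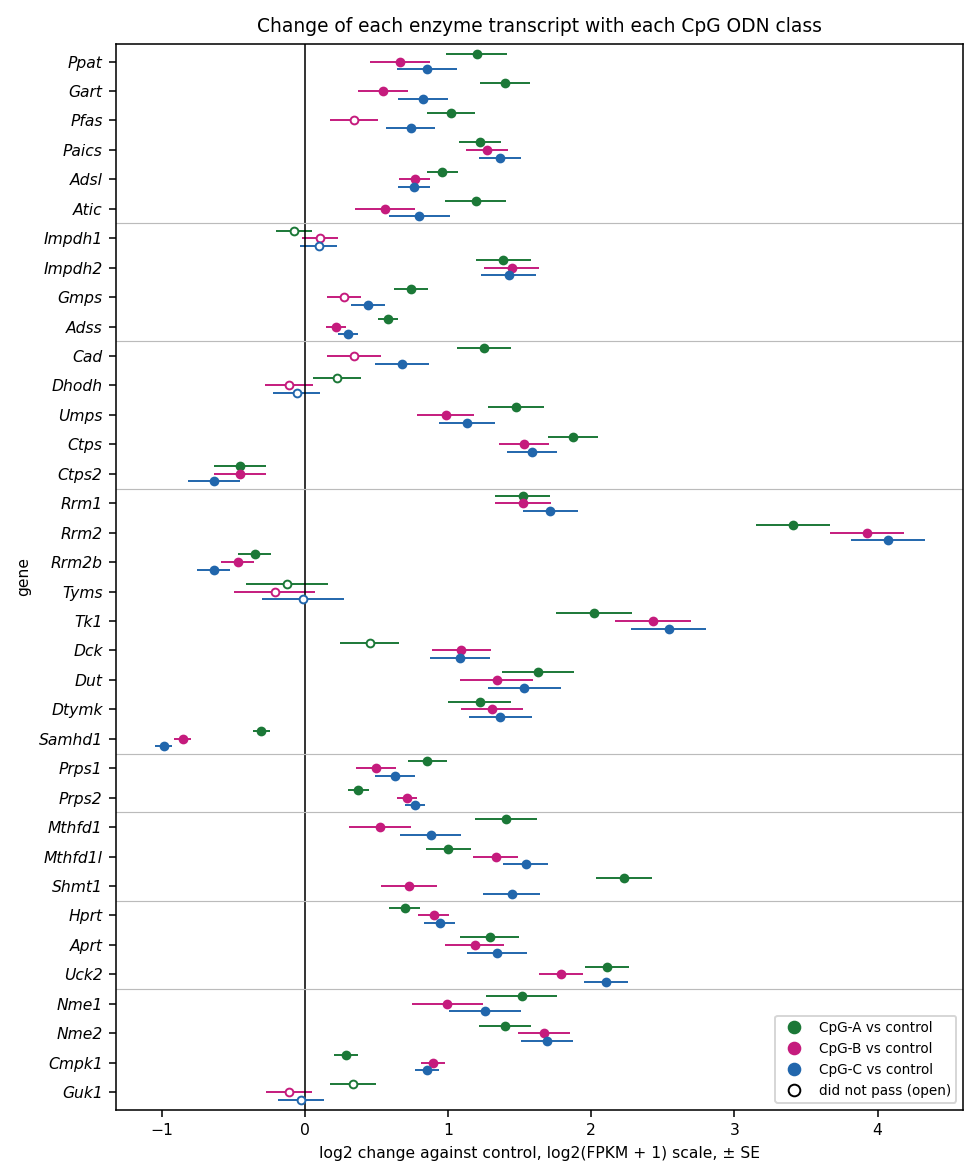
Log2 change against control ± SE (x axis, log2(FPKM + 1) scale) of each of the 36 members (y axis, by role) under CpG-A, CpG-B and CpG-C; filled points passed at an adjusted p under 0.05. Rrm2 lies furthest right at 3.41, 3.93 and 4.07, and Samhd1 furthest left under CpG-B and CpG-C at -0.85 and -0.99.

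The deoxynucleotide enzymes held the largest change of the list and 2 of the 3 falls. Rrm2 is the small subunit of ribonucleotide reductase that is made in S phase. It stood at 5.69, 4.44 and 6.02 FPKM in the control libraries, 65.1, 69.8 and 64.8 under CpG-A, 75.04, 78.6 and 147 under CpG-B and 88.1, 86.04 and 155 under CpG-C. The lowest treated library, at 64.8 FPKM, stood far above the highest control library, at 6.02, and libraries CpG-B 3 and CpG-C 3 were the highest. The changes were 3.41 ± 0.26, 3.93 ± 0.26 and 4.07 ± 0.26 (adjusted p = 1.89e-06, 1.08e-07 and 8.33e-08), and the mean FPKM was 12.4, 18.6 and 20.4 times that of the control. Rrm2b, the small subunit known for its induction by p53 and for use outside S phase, stood at 11.6, 11.7 and 12.6 FPKM in the control libraries, 8.95, 9.10 and 9.39 under CpG-A, 9.33, 8.59 and 7.20 under CpG-B and 8.25, 7.88 and 5.99 under CpG-C. All treated libraries were below all control libraries, and the changes were -0.35 ± 0.12, -0.47 ± 0.12 and -0.64 ± 0.12 (adjusted p = 0.0182, 0.00258 and 0.000272). The CpG-A call of Rrm2b was lost without control library 3 or without library CpG-A 1. Rrm1, the large subunit shared by both enzymes, was at 18.2 ± 0.624 FPKM in the control, 54.02 ± 1.47 under CpG-A, 55.3 ± 14.98 under CpG-B and 63.6 ± 19.5 under CpG-C, with changes of 1.52, 1.52 and 1.71.

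Samhd1 hydrolyses deoxynucleotide triphosphates and so acts against the enzymes that make them. It was the most abundant member in the control, at 164, 160.3 and 167 FPKM. It stood at 125, 138 and 134 FPKM under CpG-A, 90.2, 91.3 and 88.6 under CpG-B and 83.6, 84.03 and 78.5 under CpG-C. No group overlapped with another, and the libraries within a group lay close together, those numbered 3 included. The changes were -0.30 ± 0.06, -0.85 ± 0.06 and -0.99 ± 0.06 (adjusted p = 0.000825, 2.08e-07 and 7.17e-08), and the level under CpG-C was 0.501 times the control mean. Tk1, the cytosolic thymidine kinase of S phase, was at 8.93 ± 0.32 FPKM in the control, 39.3 ± 1.59 under CpG-A, 56.1 ± 26.1 under CpG-B and 58.9 ± 20.6 under CpG-C, with changes of 2.02, 2.43 and 2.54. The table lists a transcript of 12224 bases for Tk1, where the longest GENCODE coding transcript has 1440, and its model overlaps Afmid on the other strand by 6407 bases, so its level per length is uncertain. In the authors' deposited table the log2 ratios of Tk1 were 1.14, 1.59 and 1.66, smaller than the values here, and those of Dtymk 0.53, 0.60 and 0.65. The Dtymk transcript is listed at 3334 bases, where the longest GENCODE coding transcript has 1055. Its level per length is therefore uncertain as well. The cause of these gaps was not tested. Dut, which removes dUTP, changed by 1.63, 1.34 and 1.53, and Dtymk, which phosphorylates dTMP, by 1.22, 1.30 and 1.36. Dck, the deoxycytidine kinase, was at 16.3 ± 1.46 FPKM in the control, 22.6 ± 1.52 under CpG-A, 36.8 ± 11.3 under CpG-B and 36.6 ± 11.3 under CpG-C, with values of 0.45 ± 0.21, 1.09 ± 0.21 and 1.08 ± 0.21, of which the CpG-A value did not pass (adjusted p = 0.0747).

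Tyms, which makes thymidylate, did not pass with any class, with values of -0.13 ± 0.29, -0.21 ± 0.29 and -0.02 ± 0.29. It stood at 12.7, 26.4 and 11.6 FPKM in the control libraries, 13.5, 15.02 and 14.5 under CpG-A, 11.4, 11.5 and 18.5 under CpG-B and 13.5, 12.7 and 21.9 under CpG-C. Control library 2 stood far above the other control libraries and above all 9 treated libraries, and without it the values of Tyms were 0.23, 0.14 and 0.34, of which none passed. The 95% interval of the CpG-A value was -0.75 to 0.50, below the median member change of 1.20 at its upper end. The summed FPKM of 12 cell division markers moved with the group: it was 261 to 265 in the control, 919 to 957 under CpG-A, 849, 872 and 1396 in CpG-B libraries 1, 2 and 3, and 975, 960.1 and 1557 in CpG-C libraries 1, 2 and 3. Mki67 was at 4.33 to 4.99 FPKM in the control and at 34.5 to 62.3 in the treated libraries. The part of the share of dividing cells in the member changes was not tested here.

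Both PRPP synthetases rose with every class, in different orders. Prps1 stood at 15.3, 16.8 and 16.3 FPKM in the control libraries, 29.6, 28.8 and 31.5 under CpG-A, 20.5, 21.4 and 28.1 under CpG-B and 21.4, 24.3 and 31.6 under CpG-C. Prps2 stood at 19.2, 18.1 and 20.5 FPKM in the control libraries, 24.9, 24.04 and 26.8 under CpG-A, 32.2, 32.6 and 31.6 under CpG-B and 33.02, 32.3 and 35.1 under CpG-C. Neither gene's treated libraries overlapped its control libraries, and Prps1 was highest under CpG-A and in library CpG-C 3, Prps2 under CpG-B and CpG-C. The changes of Prps1 were 0.86 ± 0.14, 0.50 ± 0.14 and 0.63 ± 0.14 (adjusted p = 0.000162, 0.00571 and 0.0012), and those of Prps2 were 0.37 ± 0.07, 0.71 ± 0.07 and 0.77 ± 0.07 (adjusted p = 0.000528, 2.06e-06 and 1.21e-06). The CpG-B call of Prps1 was lost after TPM scaling (0.21, adjusted p = 0.113). Of the 50-base stretches of Prps1, 10.1% occur in Prps1l3 as well.

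The enzymes that supply folate-bound carbon units were Shmt1, Mthfd1 and Mthfd1l, and all 3 rose with each class. Shmt1, the cytosolic serine hydroxymethyltransferase, takes the unit from serine. It stood at 4.19, 4.40 and 4.68 FPKM in the control libraries, 23.2, 25.8 and 24.4 under CpG-A, 7.75, 7.05 and 9.20 under CpG-B and 11.2, 10.8 and 21.2 under CpG-C. The control libraries were the lowest, the CpG-A libraries all lay above every other library, and library CpG-C 3 was nearly as high as the CpG-A libraries. The changes were 2.23 ± 0.20, 0.72 ± 0.20 and 1.44 ± 0.20 (adjusted p = 4.96e-06, 0.00483 and 2.37e-05). Mthfd1, the cytosolic enzyme that makes the folate forms used by Gart and Atic, stood at 13.6, 11.5 and 13.3 FPKM in the control libraries, 34.6, 36.1 and 35.7 under CpG-A, 16.5, 16.4 and 24.5 under CpG-B and 19.6, 19.6 and 37.2 under CpG-C. Its CpG-A libraries and library CpG-C 3 were high, and libraries CpG-B 1 and 2 lay only a little above the control. The changes were 1.41 ± 0.22, 0.53 ± 0.22 and 0.88 ± 0.22 (adjusted p = 0.000113, 0.0414 and 0.00259). The CpG-B call was lost when any control library, any CpG-A library or library CpG-B 3 was left out, and after TPM scaling (0.24, adjusted p = 0.265). It was also lost with a pseudocount of 5, a filter at 5 FPKM, no filter and upper-quartile scaling (adjusted p = 0.0562, 0.0502, 0.0538 and 0.05345). Mthfd1l, which releases formate in the mitochondrion, had the other order: it was at 15.4 ± 0.583 FPKM in the control, 31.9 ± 0.398 under CpG-A, 41.5 ± 11.97 under CpG-B and 47.1 ± 7.09 under CpG-C, with changes of 1.00 ± 0.16, 1.33 ± 0.16 and 1.54 ± 0.16.

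The salvage enzymes all rose with each class. Uck2, the uridine and cytidine kinase, stood at 8.68, 7.33 and 8.28 FPKM in the control libraries, 39.3, 39.99 and 35.2 under CpG-A, 29.1, 30.5 and 31.4 under CpG-B and 33.5, 31.2 and 52.4 under CpG-C. Every treated library lay far above every control library, and the changes were 2.11 ± 0.15, 1.79 ± 0.15 and 2.10 ± 0.15 (adjusted p = 1.48e-06, 7.33e-07 and 2.35e-07). Hprt, which recovers hypoxanthine and guanine, stood at 57.02, 63.00 and 56.6 FPKM in the control libraries, 101, 84.2 and 104 under CpG-A, 103, 104 and 126 under CpG-B and 114, 102 and 126 under CpG-C. Its treated libraries lay above the control libraries, with less room between them. The changes were 0.70 ± 0.11, 0.90 ± 0.11 and 0.94 ± 0.11 (adjusted p = 0.000141, 9.94e-06 and 6.72e-06). Aprt, which recovers adenine, was at 32.7 ± 2.44 FPKM in the control, 81.5 ± 7.32 under CpG-A, 76.99 ± 19.7 under CpG-B and 87.3 ± 29.9 under CpG-C, with changes of 1.29, 1.18 and 1.34.

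Among the nucleotide kinases, Nme1, Nme2 and Cmpk1 rose with each class and Guk1 passed with none. Nme2, a nucleoside diphosphate kinase that makes triphosphates, was the most abundant member after treatment and stood at 96.5, 113 and 104 FPKM in the control libraries, 269, 287 and 275 under CpG-A, 294, 281 and 453 under CpG-B and 295, 298 and 446 under CpG-C. Nme1, its paralogue and neighbour, stood at 33.3, 45.4 and 38.6 FPKM in the control libraries, 113, 116 and 109 under CpG-A, 68.3, 64.9 and 108 under CpG-B and 76.2, 74.1 and 148 under CpG-C. In both genes the treated libraries lay above the control libraries, and libraries CpG-B 3 and CpG-C 3 were above the others of their group. The changes were 1.40 ± 0.18, 1.67 ± 0.18 and 1.69 ± 0.18 for Nme2 (adjusted p = 4.41e-05, 4.16e-06 and 3.70e-06) and 1.51 ± 0.25, 0.99 ± 0.25 and 1.26 ± 0.25 for Nme1 (adjusted p = 0.000184, 0.00291 and 0.000539). The genes lie 2668 bases apart on the minus strand of chromosome 11, and 54.5% of the 50-base stretches of Nme2 and 11.9% of those of Nme1 occur in Gm20390, which GENCODE lists across the pair, so the split of their reads is uncertain. Cmpk1, the UMP and CMP kinase, was at 46.7 ± 1.75 FPKM in the control, 57.1 ± 1.67 under CpG-A, 88.1 ± 8.88 under CpG-B and 85.4 ± 7.59 under CpG-C, with changes of 0.29 ± 0.09, 0.90 ± 0.09 and 0.85 ± 0.09. The CpG-A call of Cmpk1 was lost after upper-quartile scaling (0.18, adjusted p = 0.07) and TPM scaling (0.15, adjusted p = 0.0767). Guk1, which phosphorylates GMP, stood at 19.2, 24.5 and 23.8 FPKM in the control libraries, 26.6, 27.4 and 31.8 under CpG-A, 17.4, 19.8 and 25.7 under CpG-B and 18.8, 20.6 and 27.4 under CpG-C. The CpG-A libraries were all above the control libraries and the CpG-B and CpG-C libraries lay across them. The values were 0.33 ± 0.16, -0.11 ± 0.16 and -0.03 ± 0.16, and none passed (adjusted p = 0.0867, 0.546 and 0.883). In a fit of only the CpG-A and control libraries the CpG-A value passed (adjusted p = 0.0263).

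**Figure D3:**
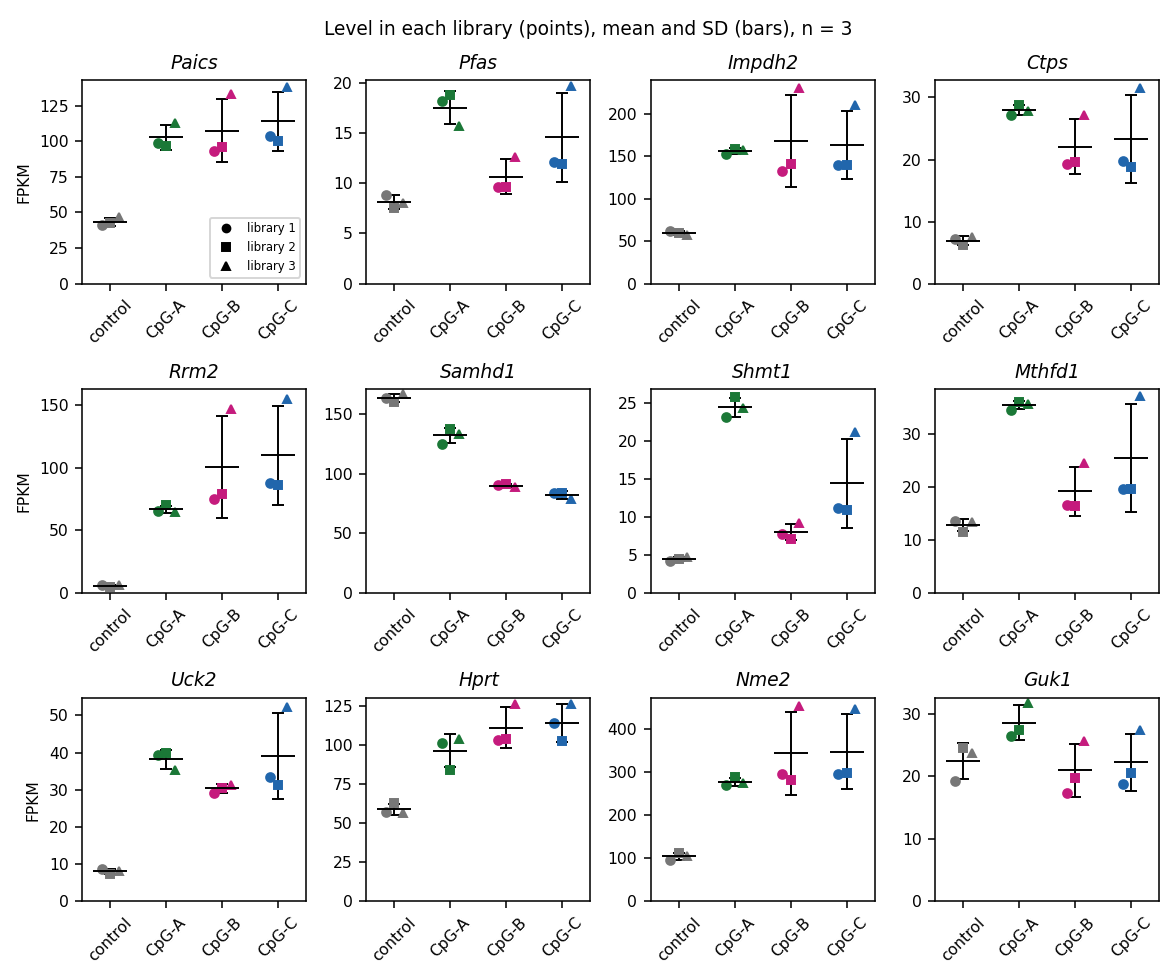
FPKM (y axis, from 0) of 12 members in each library by group (x axis), with the mean and SD of 3 libraries. Shmt1, Pfas and Mthfd1 are highest under CpG-A apart from library CpG-C 3, Samhd1 steps down over the groups, and the triangles (libraries numbered 3) stand above the others under CpG-B and CpG-C in most panels.

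Within paralogue pairs, 3 ratios shifted with treatment and 2 did not pass. The log2 ratio of Impdh2 over Impdh1 was 2.20 ± 0.18 in the control, 3.66 ± 0.11 under CpG-A, 3.54 ± 0.65 under CpG-B and 3.53 ± 0.51 under CpG-C (mean ± SD, n = 3, on FPKM + 1). That of Ctps over Ctps2 was -1.50 ± 0.10, 0.83 ± 0.12, 0.48 ± 0.54 and 0.72 ± 0.81 in the same order. By FPKM, Ctps2 was thus the higher CTP synthase in the control and Ctps in all treated groups. The Ctps2 transcript is listed at 10260 bases, where the longest GENCODE coding transcript has 3353, and its model overlaps S100g on the other strand by 2608 bases. The level of Ctps2 per length is therefore uncertain, and so is which CTP synthase was more abundant. The log2 ratio of Rrm2 over Rrm2b was -1.03 ± 0.17, 2.73 ± 0.07, 3.37 ± 0.70 and 3.68 ± 0.69, a change of the more abundant small subunit. In each of these pairs all 9 treated libraries were above all 3 control libraries, and the treated mean less the control mean was 1.38, 2.18 and 4.29. Each gave p = 0.00455 in a two-sided exact permutation test of 9 treated against 3 control libraries, the smallest p that the 220 arrangements allow, and 0.00758 after adjustment over the 5 pairs. The ratio of Prps2 over Prps1 differed by -0.04 (exact p = 0.85), with the CpG-A mean at -0.24 ± 0.01, below the control at 0.24 ± 0.12, and the CpG-B and CpG-C means at 0.46 ± 0.25 and 0.38 ± 0.23, above it. The ratio of Nme1 over Nme2 differed by -0.33 (exact p = 0.168, adjusted 0.21), with -1.41 ± 0.11 in the control, -1.29 ± 0.04 under CpG-A, -2.08 ± 0.02 under CpG-B and -1.84 ± 0.22 under CpG-C. The differences between classes in these ratios were not tested.

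**Figure D4:**
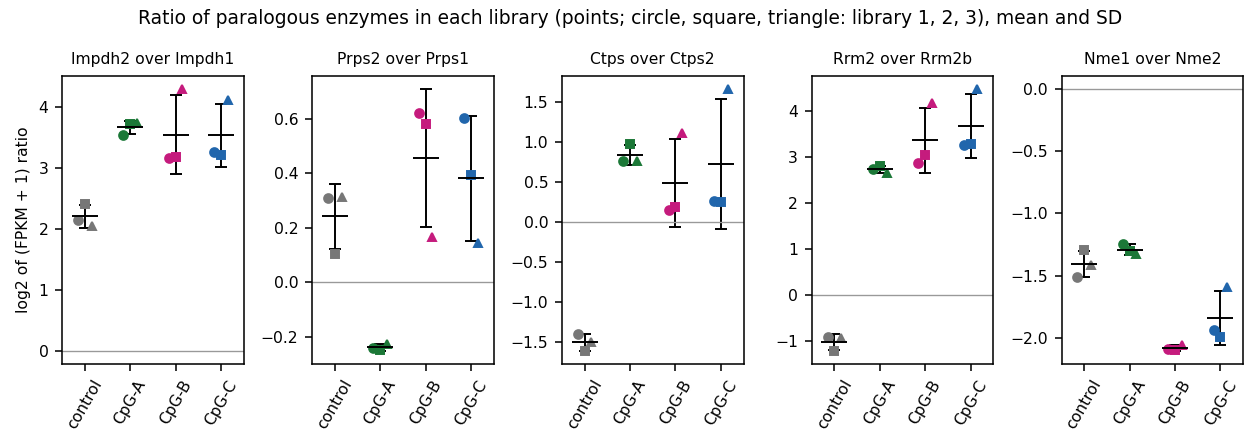
Log2 ratio of FPKM + 1 within 5 pairs of paralogues (panels, each with its own y axis) in each library by group (x axis), with the mean and SD of 3 libraries. The ratios of Ctps over Ctps2 and of Rrm2 over Rrm2b lie below 0 in the control and above 0 in all 9 treated libraries.

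The classes were then compared with each other, and the comparisons of CpG-B and of CpG-C against it share the same CpG-A libraries. Between CpG-B and CpG-A, 10 members were lower under CpG-B (beside 31.5% of all entries) and 3 higher (beside 13.1%), so neither share stood above that of all entries (among known genes these shares were 29.2% and 17.7%). The libraries of both groups did not overlap in 21 members, beside 69.0% of all entries. The lower members were the purine enzymes Gart, Pfas, Atic, Gmps and Adss, the pyrimidine enzyme Cad, the one-carbon enzymes Shmt1 and Mthfd1, and Samhd1 and Guk1, and the higher ones were Dck, Prps2 and Cmpk1. The median difference of the 36 members was -0.24, as was that of all entries. Shmt1 differed most, by -1.50 ± 0.20 (adjusted p = 0.000129), with the 3 CpG-A libraries at 23.2 to 25.8 FPKM and the 3 CpG-B libraries at 7.05 to 9.20. Cad differed by -0.91 ± 0.19 (adjusted p = 0.00278), Mthfd1 by -0.88 ± 0.22 (0.00734), Gart by -0.85 ± 0.18 (0.00288) and Samhd1 by -0.55 ± 0.06 (4.18e-05). Dck was higher under CpG-B by 0.64 ± 0.21 (adjusted p = 0.0276), Cmpk1 by 0.61 ± 0.09 (0.000206) and Prps2 by 0.34 ± 0.07 (0.00312). For 3 members with large rises under both classes the difference did not pass: it was 0.05 in Paics (95% interval -0.27 to 0.37), 0.06 in Impdh2 (-0.36 to 0.48) and 0.00 in Rrm1 (-0.42 to 0.42). Without libraries CpG-B 3 and CpG-C 3 the difference was -0.19 in Impdh2 and -0.21 in Rrm1. Both passed in that fit (adjusted p = 0.00909 and 0.00592), where the spread is lowered by the choice of libraries. Without library CpG-B 3, 16 members were lower (beside 24.5% of all entries), as were 16 without library CpG-C 3 (beside 32.3%). When single libraries were left out, Dck lost its call without any CpG-A library or without CpG-B 3 (0.41, adjusted p = 0.0951), Atic without any CpG-A library, CpG-B 1 or CpG-B 2, and Guk1 without any CpG-A library, CpG-B 1, CpG-B 2 or CpG-C 2. Pfas, Atic, Gmps, Adss and Guk1 lost it after median-of-ratios scaling (adjusted p = 0.0685, 0.181, 0.174, 0.223 and 0.347). Prps2 lost it after TPM scaling (adjusted p = 0.0638), and Dck, Atic and Guk1 with no filter. The split of calls depended on scaling: 6 were higher and 5 lower after median-of-ratios scaling (beside 22.3% and 15.8% of all entries), and 2 were higher and 18 lower after scaling to equal totals (TPM, beside 9.17% and 43.6%).

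Between CpG-C and CpG-A, 5 members were lower under CpG-C (beside 29.3% of all entries) and 4 higher (beside 11.4%), where known genes gave 24.3% and 15.4%. The libraries did not overlap in 12 members, beside 65.7% of all entries. The lower ones were Gart (-0.57 ± 0.18, adjusted p = 0.0249), Adss (-0.28 ± 0.07, 0.0105), Cad (-0.57 ± 0.19, 0.0326), Samhd1 (-0.68 ± 0.06, 9.99e-06) and Shmt1 (-0.79 ± 0.20, 0.00939). In Cad the libraries of the groups overlapped, where library CpG-C 3 reached 31.2 FPKM. The higher ones were Dck (0.63 ± 0.21, adjusted p = 0.0325), Mthfd1l (0.54 ± 0.16, 0.0197), Cmpk1 (0.57 ± 0.09, 0.000452) and Prps2 (0.39 ± 0.07, 0.00146). Only Samhd1, Shmt1, Prps2 and Cmpk1 kept their call when each of the 12 libraries was left out in turn; Gart and Cad lost it without library 1 or 2 of either group, Adss without library CpG-C 2, Dck without any CpG-A library or CpG-C 3, and Mthfd1l without library CpG-A 1, CpG-A 2 or CpG-C 3. Without library CpG-C 3, 17 members were lower and 2 higher (beside 23.7% and 11.5% of all entries). Without library CpG-A 1, 3 were lower and 2 higher (beside 15.6% and 8.52%), and without CpG-A 2 also 3 and 2 (beside 16.3% and 8.4%). Without library CpG-C 1, 3 were lower (beside 17.9%), and without CpG-C 2 there were 2 (beside 17.5%). Median-of-ratios scaling gave 7 higher and 1 lower (beside 20.0% and 15.5% of all entries), and TPM scaling 4 higher and 12 lower (beside 8.31% and 38.7%). Gart, Adss, Cad and Shmt1 lost their call after median-of-ratios scaling (adjusted p = 0.157, 0.587, 0.181 and 0.056), and Gart, Cad and Dck with no filter.

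Between CpG-C and CpG-B no member passed with limma (0 of 36, beside 0.183% of all entries). At an unadjusted p under 0.05 there were 3 members, Pfas, Samhd1 and Shmt1, and 5.77% of all entries. Deviations of same-numbered libraries of these 2 groups correlated at 0.59, 0.54 and 0.74. Unlike numbers reached 0.55, so a pairing by number is not established. A fit of these 2 groups with the number as a block gave 0 members as well. In that fit 17 of 36 had an unadjusted p under 0.05, beside 16.5% of all entries. Shmt1 had the largest difference, 0.72 ± 0.20 (adjusted p = 0.35, 95% interval 0.29 to 1.15), and in every pair of libraries with the same number its level was higher under CpG-C. The 95% intervals of the 36 differences had a median half-width of 0.39, and 35 of them lay within 1 log2 unit of 0.

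Libraries CpG-B 3 and CpG-C 3 held the highest level of their group in most members. Library CpG-B 3 was the highest of its group in 30 of 36 members (83.3%), beside 41.8% of the known genes tested, and library CpG-C 3 in 32 of 36 (88.9%), beside 42.8%. Over the mean of the other libraries of its group, the median log2 excess was 0.45 in the members and -0.03 in known genes for CpG-B, and 0.67 and -0.02 for CpG-C. Tk1 was at 41.7, 40.4 and 86.2 FPKM under CpG-B, and Dut at 27.1, 25.8 and 48.4 FPKM under CpG-C. The cell division sum was highest in the same libraries, and its part in these values was not tested. Without both libraries, 22 members were lower under CpG-B than under CpG-A (beside 30.7% of all entries) and 4 higher (beside 16.4%), and 20 were lower under CpG-C than under CpG-A (beside 30.1%) and 7 higher (beside 15.0%). All calls made with the full set were kept. Leaving these libraries out by the members' own values lowered the spread, as in Ppat, whose SE between CpG-B and CpG-A went from 0.211 to 0.0632. In that fit the gained calls and their p-values, and the keeping of the others, therefore give no support beyond the values of libraries 1 and 2. Among those gained were Ppat (-0.69 under CpG-B and -0.65 under CpG-C, adjusted p = 2.14e-05 and 3.79e-05), Umps (-0.64 and -0.63, 1.22e-05 and 1.73e-05), Nme1 (-0.75 and -0.58, 0.000267 and 0.00149) and Dut (-0.60 and -0.38, 8.18e-05 and 0.00152). With all their libraries, a fit of only the CpG-B and CpG-A groups also called Ppat, Prps1, Umps, Uck2 and Nme1 lower. The adjusted p were 0.0145, 0.0366, 0.0156, 0.0102 and 0.0428, beside 44.9% of all entries lower. A fit of only CpG-C and CpG-A called Rrm2 higher (0.0382, beside 12% of all entries). The other gained members did not pass in these fits. The group mean was highest under CpG-A in 17 of 36 members over all libraries and in 23 without libraries CpG-B 3 and CpG-C 3, under CpG-C in 11 and 6, under CpG-B in 4 and 3, and in the control in 4 and 4. Between CpG-C and CpG-B, 2 members were then higher under CpG-C (beside 0.378% of all entries), Mthfd1l (0.31, adjusted p = 0.037) and Shmt1 (0.52, 0.0207).

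**Figure D5:**
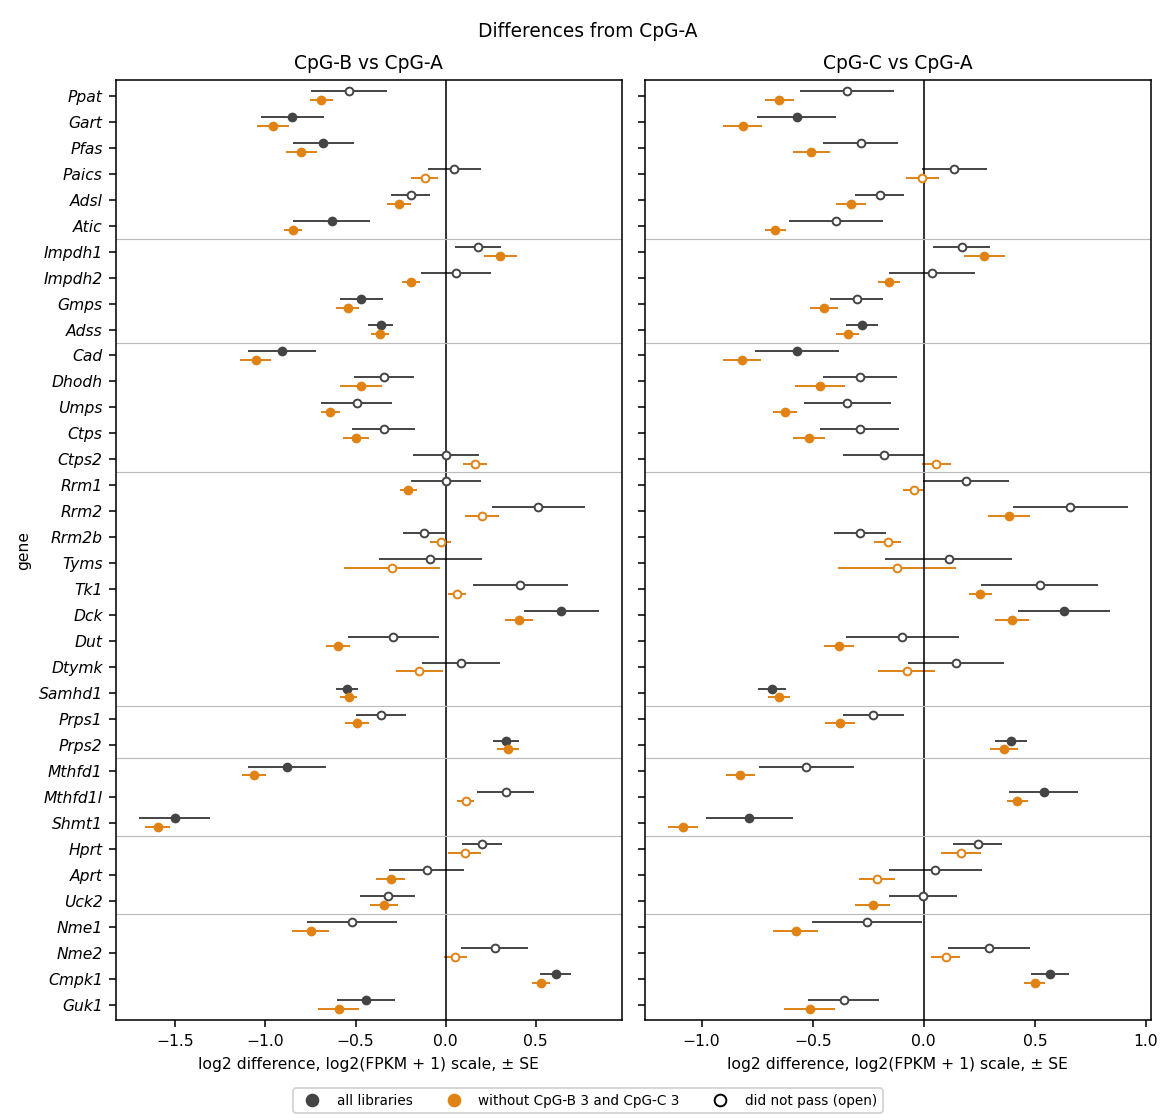
Log2 difference from CpG-A ± SE (x axis) of each member (y axis) for CpG-B (left) and CpG-C (right), over all libraries (dark grey) and without libraries CpG-B 3 and CpG-C 3 (orange); filled points passed. Shmt1 lies furthest left at -1.50 and -0.79, and most orange points lie left of their grey ones with shorter bars.

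Other genes of the same routes were taken from a list of 79, all in the table, of which 61 passed the filter. Of the 61, 35 rose and 5 fell under CpG-A, 32 and 12 under CpG-B, and 37 and 13 under CpG-C, beside the shares of all entries given above. A gene that passed the filter only through the groups where it was high had to differ, as Ak4 and Ampd1 did, so these counts describe the list and no more. The pentose phosphate pathway, which supplies ribose phosphate and NADPH, rose in 7 of 7 members under CpG-A, 6 of 7 under CpG-B and 7 of 7 under CpG-C. Its largest rise was in Tkt, transketolase, by 1.00, 0.92 and 1.03, and G6pdx, glucose-6-phosphate dehydrogenase, did not pass under CpG-B (0.07, adjusted p = 0.416). Serine synthesis, which feeds Shmt1, rose in 2, 3 and 3 of 3 genes, led by Psat1, phosphoserine aminotransferase, at 9.97, 10.1 and 9.45 FPKM in the control, 48.8, 50.4 and 50.4 under CpG-A, 82.3, 90.6 and 183 under CpG-B and 83.9, 84.7 and 128 under CpG-C. The groups did not overlap, apart from CpG-B and CpG-C, and the changes of Psat1 were 2.23, 3.37 and 3.18. Of 12 other folate genes tested (16 listed), 5, 5 and 6 rose and 1, 1 and 2 fell under CpG-A, CpG-B and CpG-C. Mthfd2, the mitochondrial methylenetetrahydrofolate dehydrogenase, had the largest rise of these genes under CpG-B and CpG-C (2.82 and 2.46, beside 1.49 under CpG-A, where Sfxn1, a mitochondrial serine transporter, led at 1.57), with library CpG-B 3 at 144 FPKM against 50.4 and 49.9. Amt, of the glycine cleavage system, had the largest single fall, by 0.88 under CpG-A.

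The CpG-B minus CpG-A difference was 1.33 in Mthfd2 (adjusted p = 0.0115) and -1.50 in Shmt1. Of 12 other salvage genes tested (13 listed), 5, 5 and 6 rose and 3, 5 and 5 fell under CpG-A, CpG-B and CpG-C. Adssl1, the muscle-type adenylosuccinate synthase, had the largest single rise, by 1.72 under CpG-C, and Tk2, the mitochondrial thymidine kinase, fell most, by 0.79, 1.68 and 1.83. Tk1, the cytosolic enzyme, rose with each class. Of 9 other nucleotide kinases tested (11 listed), 6, 7 and 7 rose and 0, 1 and 1 fell. Ak4, a mitochondrial adenylate kinase, was at 0.18, 0.25 and 0.16 FPKM in the control and 0.35, 0.31 and 0.29 under CpG-A, and at 6.25, 5.75 and 3.98 under CpG-B and 9.26, 9.02 and 4.19 under CpG-C. The CpG-B and CpG-C libraries lay far above the others, and since Ak4 passed the filter through these groups alone its change is given with no test. Nme3 fell most, by 0.76 under CpG-B. Of 11 breakdown genes tested (21 listed), 6, 5 and 6 rose and 1, 3 and 3 fell: Ada, adenosine deaminase, rose most, by 2.52 under CpG-B, and Ampd1, an AMP deaminase that passed the filter through the control alone, was at 2.73, 2.49 and 1.98 FPKM in the control and at most at 0.69 FPKM in the treated libraries. Of 4 nucleoside transporters, 3, 1 and 1 rose and 0, 1 and 1 fell, with Slc29a1 up by 1.20 under CpG-A and Slc29a3 at -0.69 under CpG-B. Of 3 PRPP synthase-associated genes tested (4 listed), 1, 0 and 1 rose and 0, 1 and 1 fell, with Prps1l3 at 0.46 under CpG-A and Prpsap2 at -0.58 under CpG-B.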

How the data were processed

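Libraries were DNBSEQ libraries of total RNA, and the tools listed in the submitters' processing notes were RSEM 1.2.8, Bowtie2 2.2.5, GATK, StringTie and HISAT, on mm10, without the step each served. The deposited table holds, per the file headers, FPKM of each entry in each library as the authors computed it, given to 2 decimals, and the authors' own log2 ratios between groups, whose sign was compared with the values here. Library strandedness and the handling of reads shared between genes are not given in the sources used here.

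Entries above 1 FPKM in at least 3 of 12 libraries (15853) were kept, 2 rows naming no gene were left out, and log2(FPKM + 1) was fitted with limma 3.58.1 in R 4.3.3 (trend, 4 group means, 1 fit of 12 libraries). Adjustment of p-values (Benjamini-Hochberg) ran over all entries. Paralogue ratios were tested by exact permutation over libraries. Tables and figures were made with Python 3.11.15, pandas 2.3.3, scipy 1.17.1 and matplotlib 3.10.9. The procedure was run on simulated data with independent noise and few genes changed, in the CpG-A group only. In these data most entries were called against control, so that run does not test the fit for them. Depth was estimated from the steps of low FPKM values, of which 90.4% to 95.5% lay within 0.2 of whole fragments, and no count test was run. Members named with a value in every library were those of largest and smallest mean change per role and the paralogue pairs, and Tyms was added after its values were seen. Members, lists and this rule were chosen with earlier results of these data known. Deviations of same-numbered libraries correlated for every number only between CpG-C and CpG-B, at 0.59, 0.54 and 0.74. The highest value for unlike numbers there was 0.55, so a pairing by number is not established. The alternatives were other pseudocounts, filters and scalings, a replicate block, each library left out, libraries CpG-B 3 and CpG-C 3 left out, and fits of 2 groups.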

Additional observations from a re-analysis of the deposited data

Results flagged for a closer look

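The change of Shmt1 against control differed between classes: it was 2.23 under CpG-A and 0.72 under CpG-B, and the difference of -1.50 passed the test of the difference itself (limma, adjusted p = 0.000129), under every alternative run.

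Guk1 was at 0.33 against control under CpG-A and at -0.11 under CpG-B, neither of which passed, while the difference of -0.44 passed (adjusted p = 0.0421). That call was lost with a pseudocount of 5 (adjusted p = 0.0539), with no filter (0.0771), after upper-quartile scaling (0.0646) and after median-of-ratios scaling (-0.21, 0.347). It was also lost without any single CpG-A library, without the first or second CpG-B library and without the second CpG-C library. The CpG-A value of Guk1 against control passed in a fit of only these 2 groups (adjusted p = 0.0263). It also passed with the replicate number as a block (0.00851).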

How the results depend on the processing

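Counts of members against control kept within 1.5 times of their value under the alternatives run, apart from the lower count under CpG-B, which was 5 after TPM scaling, and the lower count under CpG-A when libraries were left out. Between CpG-B and CpG-A, median-of-ratios scaling gave 6 higher and 5 lower, TPM scaling 20 called with 18 lower, and leaving out libraries CpG-B 3 and CpG-C 3 26 called with 22 lower. Between CpG-C and CpG-A the lower count was 3 with no filter, 1 with median-of-ratios scaling (7 higher), 12 with TPM scaling (16 called) and 20 without those libraries (27 called, 7 higher). Between CpG-C and CpG-B 2 were called without them, both higher. Values that turned were Impdh2 (-0.19 for CpG-B and -0.16 for CpG-C against CpG-A) and Rrm1 (-0.21 for CpG-B against CpG-A) without those libraries, and Adss (-0.0739 for CpG-B against control) with TPM scaling. With 1 library left out, Impdh2 ranged from -0.19 to 0.20 for CpG-B and from -0.16 to 0.14 for CpG-C against CpG-A, and Rrm1 from -0.21 to 0.11 for CpG-B against CpG-A, with none called. The cause was not tested.

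With each library left out in turn, 29 to 33 members were called under CpG-A (28 to 30 higher, 1 to 3 lower), 24 to 32 under CpG-B (22 to 29 higher, 2 to 3 lower) and 32 under CpG-C. Between CpG-B and CpG-A 10 to 19 were called (2 to 3 higher, 8 to 16 lower), and between CpG-C and CpG-A 5 to 19 (2 to 6 higher, 2 to 17 lower). The log2 change of the paralogue ratios ranged from 1.29 to 1.48 (Impdh2 over Impdh1), 2.06 to 2.24 (Ctps over Ctps2), 4.14 to 4.36 (Rrm2 over Rrm2b), -0.11 to 0.01 (Prps2 over Prps1) and -0.39 to -0.28 (Nme1 over Nme2).

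With the replicate number as a block, 33, 30 and 32 members were called against control (beside 67.1%, 78.9% and 78.7% of all entries in that fit), 17 between CpG-B and CpG-A (48.4%), 13 between CpG-C and CpG-A (44.3%), of which 8 were lower, and 0 between CpG-C and CpG-B (0.189%). The median log2 change of all entries under CpG-B moved from -0.31 to -0.10 with median-of-ratios and to -0.57 with TPM scaling. Of 36 members, the authors' deposited log2 ratios had the same sign as the values here in all 36 in each comparison with control, in 35 between CpG-B and CpG-A, in 34 between CpG-C and CpG-A and in 35 between CpG-C and CpG-B. Their sizes differed by over 0.4 in Tk1 (1.14, 1.59 and 1.66 in the authors' deposited table), Dtymk (0.53, 0.60 and 0.65) and, under CpG-B and CpG-C, Tyms (-0.75 and -0.54). The values here were 2.02, 2.43 and 2.54 for Tk1 and 1.22, 1.30 and 1.36 for Dtymk. In the other 33 members the values here less the authors' lay between -0.28 and 0.24 against control. The cause was not tested.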
